A study of Mus musculus with 6 samples.

Results

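Most of the genes described here serve to carry cystine into the cell, turn it into glutathione and use glutathione or thioredoxin against peroxides and electrophiles. These are Slc7a11, Gclc, Gclm, Gsr, Gpx1, Gpx4, Gstm1 and Txnrd1. The others are Nqo1, the gene of a quinone reductase, and Hmox1, whose enzyme breaks down haem. These 10 genes were taken by symbol from a table of 23420 genes, and all 10 passed the filter on low counts that left 12257 genes for testing. The set was put together because Slc7a11 was higher and Gstm1 lower in the mutant libraries, so those differences are given below as a description and not as support for anything.

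The libraries hold RNA of the lens transition zone of E14.5 mouse embryos, where dividing epithelium turns into elongating fibre cells. The control group (titled wild type) held 3 libraries from embryos with the genotype Le-Cre. The mutant group held 3 libraries with Le-Cre, Etv4-/-, Etv5 fl/fl and Etv1 fl/fl, a design meant to remove the Pea3 family of ETS transcription factors, effectors of fibroblast growth factor signalling. Both groups carried the Le-Cre transgene, in which Pax6 regulatory sequence drives Cre in the ectoderm of the future lens. Etv5 and Etv1 were therefore to be deleted where Cre acted, whereas Etv4 was null in the whole embryo. All embryos had a mixed strain background and were frozen in embedding medium, and no label ties a library to 1 embryo or to several, so tests measure the spread between these libraries, which may be technical.

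Glutathione is a tripeptide that holds cysteine, and the supply of cysteine usually limits its synthesis. Cells import the oxidised dimer cystine through system xc-, made of the light chain xCT (Slc7a11) and the heavy chain 4F2hc (Slc3a2), and reduce it inside the cell. The lens holds glutathione at a high concentration, where it protects crystallins and membranes from oxidation. Many of these genes are targets of the transcription factor NRF2 (Nfe2l2), which binds antioxidant response elements, and Slc7a11 is also a target of ATF4, which binds amino acid response elements.

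Summed counts lay between 13364742 and 17301168 per library. Levels are given as CPM (counts scaled to library size with TMM factors). They are not divided by transcript length, so they compare libraries and not genes. Values listed for the controls or the mutants are always in the order of libraries 1, 2 and 3. Etv1 fell (log2 fold change -1.11 ± 0.21 (SE); in edgeR, adjusted p = 0.0319), Etv5 was at -0.93 ± 0.19 and Etv4 at 0.64 ± 0.36 without passing (SE), and counts over whole genes do not show a deleted exon. The Etv1 call was lost in 5 of 14 alternatives (the replicate block and the fits that left out mutant library 1, mutant library 3, control library 2 or control library 3; -1.18 to -0.94). Etv5, at an adjusted p of 0.0503 in edgeR, passed in 6 of 14, DESeq2, limma voom and the crystallin covariate among them. DESeq2 called 6.7% of all tested genes, limma voom 6.54% and the covariate fit 6.51%, against 2.22% in the main fit. A gene that passes only in those fits, here or below, is to be read beside these shares. Xist had 711 counts and Ddx3y 2 in mutant library 1, against at most 3 and at least 521 in the other 5, so that library differs in the sex of its tissue. Genes of 16 crystallins took these shares of all counts: 37.6%, 30.2% and 21.8% in the controls and 21.7%, 32.2% and 19.5% in the mutants. Lens markers were abundant: the summed level of 8 fibre markers lay between 52290 and 181800 CPM. That of 6 epithelial markers lay between 1946 and 2544 CPM. Crystallins made up most of the first sum and Sparc (1142 to 2149 CPM) most of the second. Other markers barely show in them. All 7 tested fibre markers had negative log2 fold changes (median -0.94), and 1 passed, Bfsp2 (-4.88 ± 0.52 (SE); in edgeR, adjusted p = 0.00464). Over all tested genes, 2.22% passed. Bfsp2 stood at 633.3, 379.8 and 253.5 CPM in the controls and 15.6, 21.1 and 6.65 CPM in the mutants. Among controls, the epithelial marker Foxe3 lay between 51.2 and 282.8 CPM. In bulk tissue, fewer cells of a type and less RNA per cell cannot be told apart.

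Across the set, Slc7a11 was higher and Gstm1 lower in the mutant libraries, and the other 8 genes did not pass. Of the 10 genes, 1 passed in each direction at an adjusted p under 0.05, beside 2.22% of all tested genes (1.14% higher and 1.08% lower), and nothing is read from this count because the set was chosen on it. The median log2 fold change of the 10 was 0.18, beside 0.00 (0.0018) over all tested genes. The groups stood apart, without overlap, for Slc7a11 (mutant higher) and for Gclc, Gclm and Gstm1 (mutant lower). Of all tested genes, 22.7% had no overlap, 11.4% with mutant libraries higher and 11.3% lower. Nothing is read from this count either, because the set was chosen on Slc7a11 and Gstm1. The 8 genes that did not pass had adjusted p-values between 0.198 and 0.974 in edgeR's quasi-likelihood test. Over all 12257 tested genes, 1985 had an unadjusted p under 0.05 in edgeR, the background for such counts in the lists below.

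**Figure D1:**
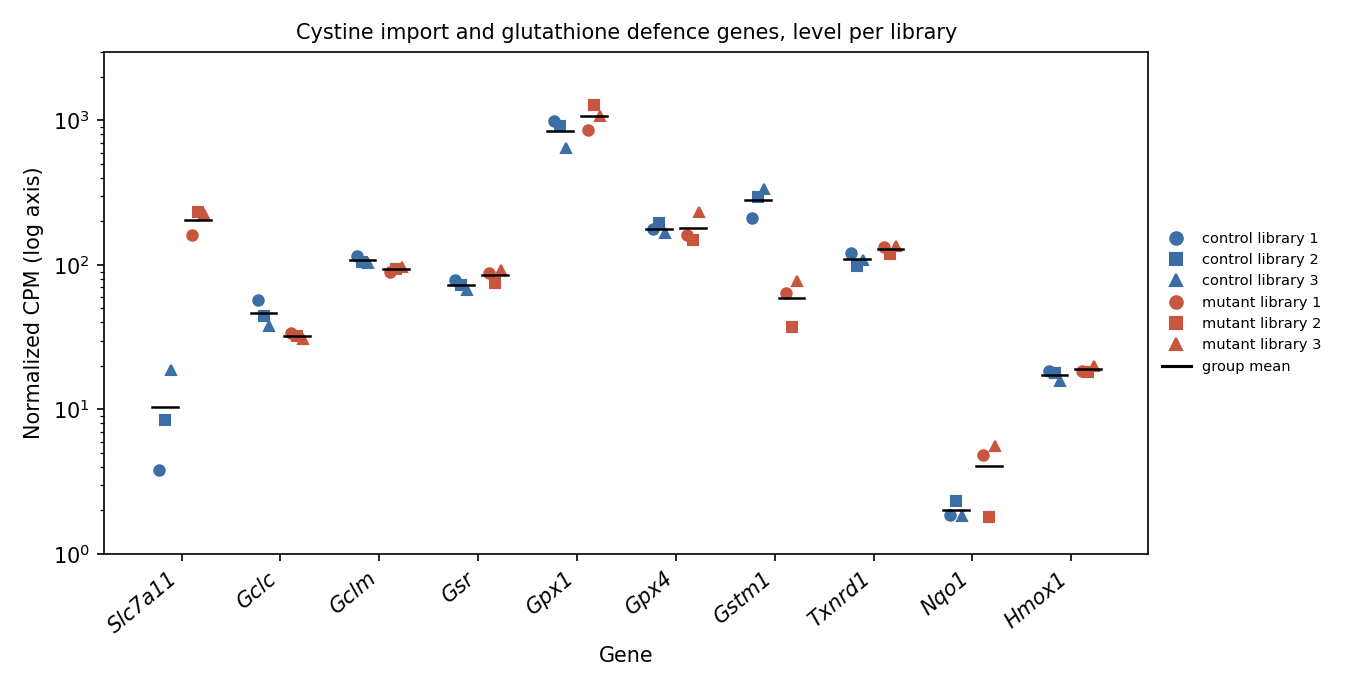
Normalized CPM (log axis) of the 10 genes in each library, with control libraries in blue, mutant libraries in red, marker shapes for the library number and black bars for group means (n = 3). The mutant points of Slc7a11 lie between 160.7 and 232.5 CPM, above all control points, and those of Gstm1 between 36.9 and 76.9 CPM, below all control points.

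Slc7a11 encodes xCT, the subunit that exchanges extracellular cystine for intracellular glutamate. It had 51, 140 and 339 counts in the controls and 3166, 2819 and 4114 in the mutants. Scaled to library size, this was 3.81, 8.504 and 18.8 CPM in the controls and 160.7, 232.5 and 224.3 CPM in the mutants. Every mutant library stood above every control library, the lowest mutant 8.55 times the highest control. The controls differed among themselves 4.93 times between the lowest and the highest, the mutants 1.45 times. The means of 10.4 CPM ± 7.66 and 205.8 CPM ± 39.3 (SD, n = 3) differed 19.9 times, and the fitted log2 fold change was 4.29 ± 0.53 (SE). By size of increase Slc7a11 ranked 27th of 12257 genes. Among the leave-one-out fits its log2 fold change lay between 3.91 and 5.05, and it passed in all of these but that without control library 2 (4.17). Without mutant library 1, which differs in sex, it was 4.45. In the authors' deposited table its log2 fold change was 4.04 with a standard error of 0.39.

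Control libraries ordered by Slc7a11 stood in the reverse order by crystallin share, since control library 1 had the lowest Slc7a11 and the highest share. Mutant library 2 had a crystallin share of 32.2%, between those of control libraries 1 and 2, and its Slc7a11 was 232.5 CPM. With the crystallin share as a covariate the log2 fold change of Slc7a11 was 4.18 ± 0.52 (SE). The part of fibre content in the Slc7a11 level was not tested.

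xCT is also made by macrophages and pigment cells. The summed level of 10 macrophage markers was 11.5, 4.62 and 1.61 CPM in control libraries 1, 2 and 3 and 32.4, 4.12 and 35.5 CPM in the mutants. Of the 10, 6 were tested, all 6 had positive log2 fold changes, and 0 passed. Of these 6, 4 had an unadjusted p under 0.05 in edgeR, beside 1985 of all 12257 tested genes. The sum was high in mutant libraries 1 and 3 and within the control range in mutant library 2. The summed level of 10 markers of pigment epithelium and melanocytes lay between 15.5 and 20.5 CPM in control and between 14.6 and 24.2 CPM in mutant libraries, with Tyr and Rpe65 at 0 counts in all 6. The part of these cell types in the Slc7a11 level was not tested.

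The stretch before the Slc7a11 start site is shown because it holds matches to the response elements named above. It is chr3:50443614-50443863 on the minus strand of GRCm38.p6, from RefSeq, another build than the mm9 named in the submitters' processing notes. Capitals mark matches to the motifs searched on both strands.
Slc7a11: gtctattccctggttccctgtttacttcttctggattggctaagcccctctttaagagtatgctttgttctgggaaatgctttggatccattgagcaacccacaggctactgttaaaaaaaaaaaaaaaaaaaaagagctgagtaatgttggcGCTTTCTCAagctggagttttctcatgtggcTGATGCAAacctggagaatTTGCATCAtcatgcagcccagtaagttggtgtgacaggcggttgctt

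The amino acid response element was searched as TGATGNAA, and Slc7a11 held 2 matches, TGATGCAA starting at position -66 and, on the other strand, TTGCATCA at -47, counted from the start site. Of 32851 windows of 250 bases before a start site, 3.45% held at least 1 match and 0.0396% held 2 or more. The antioxidant response element was searched as TGACNNNGC and TGAGNNNGC, and Slc7a11 held 1 match to the second form, GCTTTCTCA at -97 on the other strand, where 23% of all windows held at least 1 match to either form. The ETS motif CCGGAAG had 0 matches here, and 6.91% of windows held it. Windows were found for 7 of the 10 genes, 13 in all. Among the other 6 genes, Gclm (GCACCGTCA at -134) and Txnrd1 (GCTTTGTCA at -92, in 1 of its windows) held 1 antioxidant response element match each, and 0 windows held TGATGNAA or CCGGAAG. A match is a run of letters and was not tested as a binding site.

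The heavy chain gene Slc3a2, which holds xCT at the membrane, did not pass. It stood at 825.9, 574.3 and 554.7 CPM in control libraries 1, 2 and 3 and at 371.1, 632.3 and 454.6 CPM in the mutants, with overlapping groups and a log2 fold change of -0.42 ± 0.23 (SE; in edgeR, adjusted p = 0.421). This protein also serves other amino acid transporters. Of 12 tested genes for the supply of cystine and cysteine, which include Slc7a11 and Slc3a2, 1 rose (Slc7a11), 0 fell and 11 did not pass, with a median log2 fold change of -0.16. Over all tested genes, 1.14% rose and 1.08% fell, and the set was chosen on Slc7a11, so nothing is read from this count. Slc1a4, which encodes a transporter of neutral amino acids such as serine, alanine and cysteine, was lower in every mutant library without passing (log2 fold change -0.68 ± 0.16 (SE); in edgeR, adjusted p = 0.0697). Slc1a4 passed with DESeq2, limma voom and the crystallin covariate, and without mutant library 2 (-0.82).

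The genes of the enzymes that make glutathione did not pass in either direction. Gclc encodes the catalytic and Gclm the modifier subunit of glutamate-cysteine ligase, the rate-limiting enzyme. Gclc stood at 57.2, 44.5 and 37.7 CPM in control libraries 1, 2 and 3 and at 33.9, 32.2 and 30.5 CPM in the mutants. The groups did not overlap, but the lowest control was only 1.11 times the highest mutant, and the log2 fold change was -0.53 ± 0.18 (SE; in edgeR, adjusted p = 0.198). Control libraries had the same order by Gclc as by crystallin share, and with this share as a covariate the log2 fold change was -0.38 ± 0.17 (SE).

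Gclm stood at 115.3, 104.5 and 103.5 CPM in the controls and 89.6, 93.2 and 96.9 CPM in the mutants. These levels were close within each group, and the gap between the groups was 1.07 times. Its log2 fold change was -0.21 ± 0.12 (SE; in edgeR, adjusted p = 0.429). Gss, the gene of glutathione synthetase, which adds glycine in the last step, stood at 1572, 980.5 and 772.3 CPM in the controls and 591.3, 1050 and 548.5 CPM in the mutants. Within each group the order of the libraries by Gss was that by crystallin share, and the log2 fold change of -0.60 ± 0.33 was -0.23 ± 0.13 with that share as a covariate (SE).

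Gsr encodes glutathione reductase, which restores glutathione from its oxidised form with NADPH. Its levels were 78.8, 72.7 and 67.5 CPM in the controls and 87.97, 74.5 and 91.8 CPM in the mutants. Mutant library 2 lay within the control range, the other mutant libraries above it, and the log2 fold change was 0.22 ± 0.14 (SE; in edgeR, adjusted p = 0.477). Of 17 tested genes of glutathione synthesis and turnover, 1 rose, 0 fell and 16 did not pass, with a median log2 fold change of -0.05. Over all tested genes, 1.14% rose and 1.08% fell. The gene of this list that rose was Glo1, which encodes glyoxalase 1, the enzyme that uses glutathione to remove methylglyoxal. Glo1 stood at 159.3, 178.9 and 159.6 CPM in the controls and 249.1, 271.6 and 244.9 CPM in the mutants. All mutant values lay above all control values, and the log2 fold change was 0.62 ± 0.12 (SE; in edgeR, adjusted p = 0.0379). The Glo1 call was lost in each of the 6 fits that left out a library, with log2 fold changes between 0.57 and 0.68, and with the replicate number as a block.

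**Figure D2:**
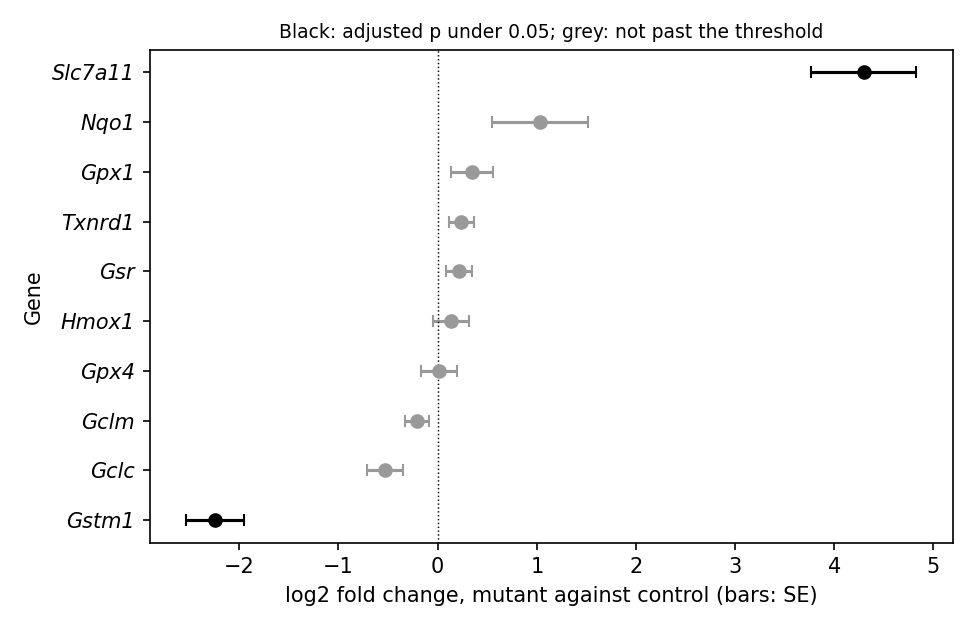
Fitted log2 fold changes of the 10 genes, mutant against control, with bars for the SE and black points for those past an adjusted p of 0.05 over all tested genes. Slc7a11 at 4.29 and Gstm1 at -2.25 stand apart from the other 8, which lie between -0.53 (Gclc) and 1.03 (Nqo1).

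Glutathione peroxidases, selenoproteins in the case of Gpx1 and Gpx4, use glutathione to reduce peroxides. Gpx1, the gene of the cytosolic enzyme, stood at 983.9, 915.7 and 645.9 CPM in the controls and 863.4, 1288 and 1080 CPM in the mutants. The groups overlapped, with control library 3 lowest and mutant library 2 highest, and the log2 fold change was 0.34 ± 0.21 (SE; in edgeR, adjusted p = 0.469). With the crystallin share as a covariate it was 0.54 ± 0.15 (SE), still without passing. The summed level of 10 erythrocyte markers, a cell type rich in this enzyme, lay between 56.1 and 185.9 CPM in control and between 76.9 and 313.2 CPM in mutant libraries, of which Hbb-b1, Hbb-b2, Hba-a1 and Hba-a2 were at 0 counts in all 6. Hbb-y, another marker of the list, had 845 to 4805 counts. Whether the zeros reflect how reads of similar genes were assigned was not tested, so the sum may leave out erythrocyte RNA. The part of erythrocytes in the Gpx1 level was not tested.

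Gpx4, whose enzyme reduces lipid peroxides in membranes and holds back ferroptosis, stood at 176.8, 194.0 and 165.4 CPM in the controls and 161.8, 147.9 and 232.8 CPM in the mutants. Mutant library 3 was the highest and mutant library 2 the lowest of all 6. The log2 fold change was 0.02 ± 0.18 (SE; in edgeR, adjusted p = 0.974), and its sign turned in 5 of 14 alternatives. In GENCODE transcripts, 61.7% of the 50-base words of Gpx4 also occurred in another gene, among them the pseudogene Gpx4-ps2, so its count depends on how shared reads were assigned. Of 9 tested peroxidase and glutaredoxin genes, 0 passed in edgeR (1 at an unadjusted p under 0.05, Glrx), with a median log2 fold change of 0.03. Glrx, the gene of cytosolic glutaredoxin, had a mean of 0.755 CPM ± 0.079 in the controls and 2.21 CPM ± 0.973 in the mutants (SD, n = 3), and Gpx8, of the endoplasmic reticulum, had a log2 fold change of 0.69 ± 0.32 (SE).

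The list of lipid peroxide defence and ferroptosis, which includes Slc7a11 and Gpx4, also held Alox12. Alox12 encodes arachidonate 12-lipoxygenase, which makes lipid hydroperoxides. It fell from 187.5, 232.8 and 165.3 CPM in the controls to 85.6, 94.0 and 69.2 CPM in the mutants, without overlap (log2 fold change -1.24 ± 0.18 (SE); in edgeR, adjusted p = 0.0105). Of 15 tested genes of the list, 1 rose (Slc7a11), 1 fell (Alox12) and 13 did not pass, with a median of 0.02. Over all tested genes, 1.14% rose and 1.08% fell, and Slc7a11 was a gene the set was chosen on. Without control library 2 (-1.09), mutant library 1 (-1.26) or mutant library 3 (-1.12) Alox12 did not pass.

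Gstm1 encodes a cytosolic glutathione transferase of the mu class, which joins glutathione to electrophiles. It had 2841, 4883 and 6045 counts in the controls and 1258, 448 and 1411 in the mutants. In CPM this was 212.4, 296.6 and 335.1 in the controls and 63.9, 36.9 and 76.9 in the mutants. Every mutant library lay below every control library, the lowest control 2.76 times the highest mutant. The means of 281.3 CPM ± 62.8 and 59.2 CPM ± 20.4 (SD, n = 3) differed 4.75 times, and the log2 fold change was -2.25 ± 0.29 (SE). Gstm1 ranked 93rd by size of decrease. It lay between -2.48 and -2.0 in the leave-one-out fits and did not pass without control library 2 (-2.21) or mutant library 1 (-2.30). The authors' deposited table gives -2.18 with a standard error of 0.27.

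Within each group, Gstm1 had the reverse order of the crystallin share, and with this share as a covariate its log2 fold change was -2.59 ± 0.15 (SE). Foxe3, a transcription factor gene of the lens epithelium and one of the markers listed, stood at 51.2, 214.0 and 282.8 CPM in the controls and 152.1, 39.8 and 155.7 CPM in the mutants, the same order within each group as Gstm1. Foxe3 overlapped between the groups (log2 fold change -0.66 ± 0.67 (SE)), whereas Gstm1 did not. It was picked after its values were seen, and the epithelial markers did not move as 1. Of the 6, 3 had positive and 3 negative log2 fold changes (median -0.08), and 0 passed. Sparc had the opposite order in the controls (1653, 1316 and 1142 CPM) and a log2 fold change of 0.37 ± 0.22 (SE). The part of epithelial content in the Gstm1 level was not tested.

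**Figure D3:**
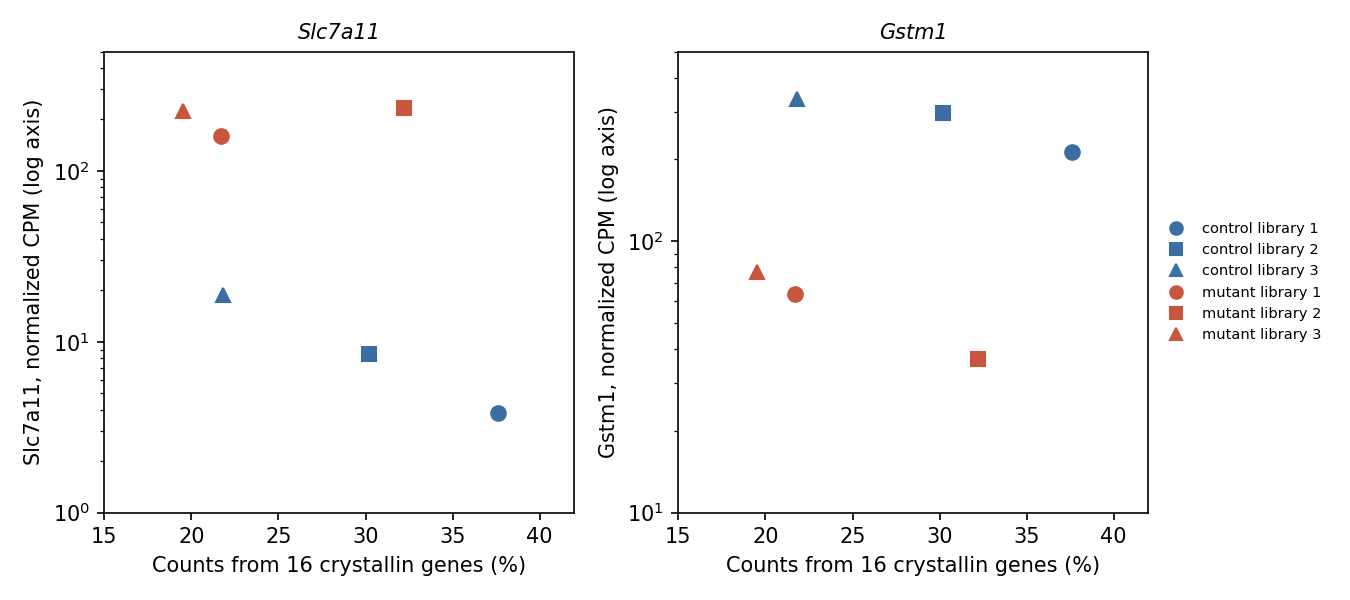
Normalized CPM (log axis) of Slc7a11 and Gstm1 against the percentage of counts from 16 crystallin genes, 1 point per library, control in blue and mutant in red. Mutant library 2, at a share of 32.2%, lies at 232.5 CPM of Slc7a11 and 36.9 CPM of Gstm1; the part of the share in these levels was not tested.

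The window before the Gstm1 start site is shown for contrast with that of Slc7a11. RefSeq has 2 such windows, and the more downstream one lies at chr3:108017819-108018068 on the minus strand of GRCm38.p6. Its capitals mark a TATA box match, TATAAA at -30, a motif that 12.4% of all windows held.
Gstm1: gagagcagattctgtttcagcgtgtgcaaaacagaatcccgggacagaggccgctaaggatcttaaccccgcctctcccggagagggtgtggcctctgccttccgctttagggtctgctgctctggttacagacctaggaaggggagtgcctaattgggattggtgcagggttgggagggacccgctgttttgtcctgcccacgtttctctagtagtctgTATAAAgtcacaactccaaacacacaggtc

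Neither window held a match to the antioxidant, amino acid or ETS motifs as spelled above, which says only that these letters are not in those 250 bases.

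The other genes of the mu class differed in direction from one another. Gstm2 stood at 4.26, 7.35 and 12.2 CPM in the controls and 2.94, 0.247 and 3.87 CPM in the mutants. Gstm6 stood at 11.5, 20.1 and 18.9 CPM in the controls and 6.80, 3.55 and 9.05 CPM in the mutants. Both were lower in every mutant library, with mutant library 2 lowest as for Gstm1, and neither passed (log2 fold change -1.72 ± 0.77 and -1.37 ± 0.37 (SE); in edgeR, adjusted p = 0.321 and 0.109). Gstm6 passed with DESeq2 and with limma voom, and both passed given the crystallin share, at -2.75 for Gstm2 and -1.79 for Gstm6.

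Gstm5 had log2 fold change 0.32 ± 0.18 and Gstm4 0.17 ± 0.15, while Gstm7 was at -0.30 ± 0.14 (SE), and these 3 did not pass. Gstm1 took 42.3%, 47.8% and 56.4% of all counts of the 7 mu class genes in the controls and 18.7%, 9.48% and 19.7% in the mutants. Gstm5 in turn stood at 193.1, 215.6 and 144.7 CPM in the controls and 198.6, 268.6 and 225.3 CPM in the mutants. The summed level of the class was 501.5, 620.3 and 593.8 CPM in the controls and 342.2, 389.8 and 390.4 CPM in the mutants, without overlap. This sum includes Gstm1, on which the set was chosen, so it is no sign of a fall across the class. Of all tested genes, 22.7% had no overlap.

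Mu class genes are close copies. Of the 50-base words of the Gstm1 transcript, 23.1% also occurred in another gene, among them Gstm2 and Gstm3, and the shares were 9.36% for Gstm2 and 11.5% for Gstm6. For Gstm4, Gstm5 and Gstm7 none of the words were shared (0 in each). How the authors assigned shared reads is not given in the sources used here, so the values of Gstm1 and Gstm2 are uncertain one from another. The words of Gstm6 were shared with Gstm3, Gm12494 and Gm8834 and not with Gstm1 or Gstm2. Its value is uncertain against those of the genes it shares words with.

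**Figure D4:**
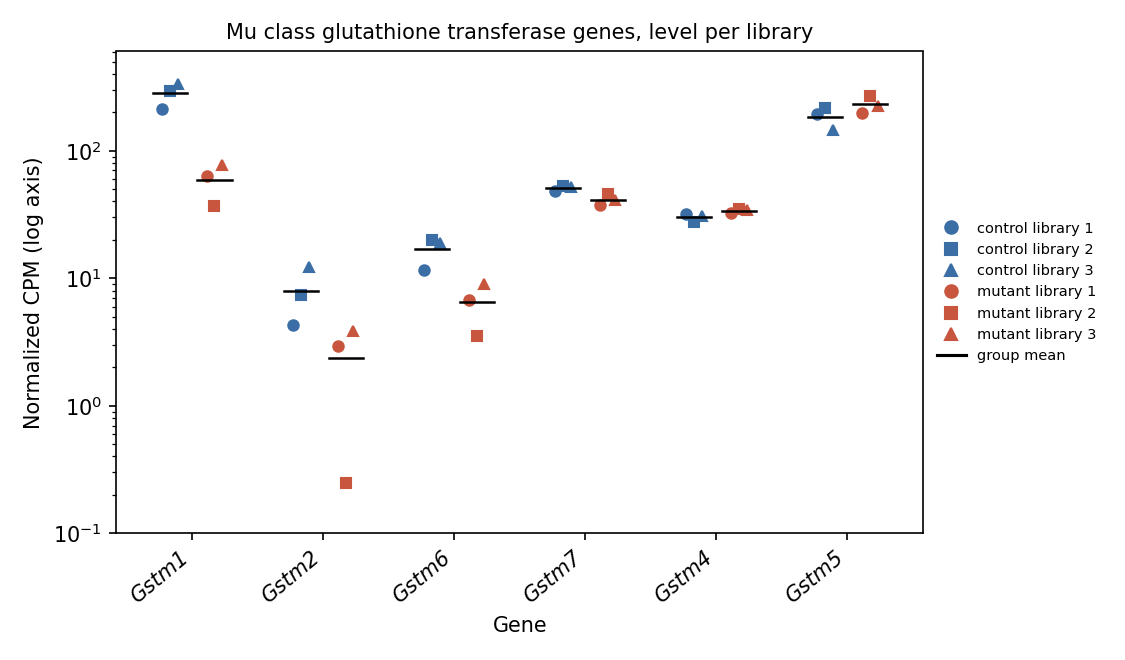
Normalized CPM (log axis) of the 6 tested mu class transferase genes in each library, control in blue and mutant in red, with black bars for group means. Gstm1, Gstm2, Gstm6 and Gstm7 have all mutant points below all control points, Gstm4 has them above, and the points of Gstm5 overlap.

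Of 18 tested glutathione transferase genes of all classes, 0 rose, 1 fell (Gstm1) and 17 did not pass, with a median log2 fold change of -0.23. Over all tested genes, 1.14% rose and 1.08% fell, and the set was chosen on Gstm1, so nothing is read from this count. Gsta4, whose enzyme clears the lipid aldehyde hydroxynonenal, stood at 7.55, 16.6 and 6.71 CPM in the controls and 3.55, 3.30 and 2.67 CPM in the mutants, without passing (log2 fold change -1.70 ± 0.40 (SE); in edgeR, adjusted p = 0.077). Gsta4 passed with DESeq2 and with the crystallin covariate (-1.62). Gstp1, the pi class gene, stood at 849.0, 628.4 and 431.5 CPM in the controls and 426.4, 651.5 and 413.1 CPM in the mutants. Its libraries had the order of the crystallin share within each group, and its log2 fold change went from -0.36 ± 0.27 to -0.02 ± 0.12 with that share as a covariate (SE).

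The thioredoxin branch works beside glutathione. Txnrd1 encodes the cytosolic thioredoxin reductase, a selenoprotein, which can also serve the reduction of imported cystine. It stood at 120.3, 98.3 and 108.7 CPM in the controls and 132.6, 119.3 and 134.3 CPM in the mutants. Mutant library 2 lay within the control range and the other mutant libraries above it, and the log2 fold change was 0.24 ± 0.13 (SE; in edgeR, adjusted p = 0.409). Txnrd2, the mitochondrial enzyme, and Txnrd3 had log2 fold changes of -0.29 ± 0.15 and 0.05 ± 0.16 (SE). In RefSeq, Txnrd1 overlaps Eid3, which is also in the table, so some reads may be shared. Of 19 tested genes of thioredoxins and peroxiredoxins, 0 passed in edgeR, with a median of 0.05. Among the 19, 3 had an unadjusted p under 0.05 in edgeR, beside 1985 of all 12257 tested genes. Of the genes named from this list, both DESeq2 and limma voom called Txnip.

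Txnip, the gene of an inhibitor of thioredoxin, stood at 2.32, 7.23 and 3.99 CPM in the controls and 16.7, 10.2 and 11.9 CPM in the mutants. Every mutant value lay above every control value, and the log2 fold change was 1.52 ± 0.42 (SE; in edgeR, adjusted p = 0.115). Txn1, thioredoxin itself, had a log2 fold change of 0.62 ± 0.19 (SE; in edgeR, adjusted p = 0.163). Prdx1, a peroxiredoxin that thioredoxin recycles, had one of 0.30 ± 0.15 (SE; in edgeR, adjusted p = 0.387).

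Nqo1 and Hmox1 are often read as signs of NRF2 activity. Nqo1, the gene of a quinone reductase, had a low level of 1.87, 2.31 and 1.83 CPM in the controls and 4.82, 1.81 and 5.56 CPM in the mutants. Mutant libraries 1 and 3 stood above all controls and mutant library 2 below them, at 22 counts. The log2 fold change was 1.03 ± 0.48 (SE; in edgeR, adjusted p = 0.34), and given the crystallin share 0.63 ± 0.54 (SE). The macrophage markers given above were also high in mutant libraries 1 and 3 and low in mutant library 2, and their part in the Nqo1 level was not tested.

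Hmox1 encodes haem oxygenase 1, which breaks down haem and is also a target of the NRF2 competitor BACH1. It stood at 18.5, 17.8 and 15.6 CPM in the controls and 18.6, 18.3 and 20.1 CPM in the mutants. All 6 values lay close together with overlapping groups, and the log2 fold change was 0.13 ± 0.18 (SE; in edgeR, adjusted p = 0.763).

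Among the regulators, Nfe2l2 stood at 65.3, 54.1 and 57.0 CPM in the controls and 76.7, 105.5 and 60.8 CPM in the mutants. The groups overlapped and the log2 fold change was 0.46 ± 0.20 (SE; in edgeR, adjusted p = 0.311). Given the crystallin share, Nfe2l2 was at 0.60 ± 0.16 (SE) and passed (in edgeR, adjusted p = 0.0469). It passed in only this 1 of 14 alternatives, a fit that called 6.51% of all tested genes, against 2.22% without the covariate. Keap1, whose protein sends NRF2 to degradation, had a log2 fold change of 0.00 (-0.0050) ± 0.13, and Bach1 one of 0.65 ± 0.33 (SE). Cul3, the scaffold of the ligase that KEAP1 uses, had one of -0.82 ± 0.23, and Nfe2l1, of the same family as Nfe2l2, -0.37 ± 0.16 (SE); neither passed in edgeR, and Cul3 passed with DESeq2, limma voom and the crystallin covariate (-0.55). Atf4 stood at 113.4, 93.4 and 84.2 CPM in the controls and 83.1, 94.3 and 40.3 CPM in the mutants, with overlapping groups and mutant library 3 lowest. Its part in the Slc7a11 level was not tested. Of 13 tested regulators, 0 passed in edgeR and 3 had an unadjusted p under 0.05, beside 1985 of all 12257 tested genes.

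Further targets of NRF2 outside glutathione and thioredoxin did not pass. Of 20 tested genes, which include Nqo1 and Hmox1, 0 passed in edgeR, 11 were positive and 9 negative, and their median log2 fold change was 0.04. Among the 20, 3 had an unadjusted p under 0.05 in edgeR, beside 1985 of all 12257 tested genes. Me1, the gene of malic enzyme, which makes NADPH, had a mean of 26.1 CPM ± 2.89 in the controls and 13.6 CPM ± 2.61 in the mutants (SD, n = 3; log2 fold change -0.94 ± 0.21 (SE); in edgeR, adjusted p = 0.0632). Abcc4, the gene of an export pump, had a log2 fold change of 1.47 ± 0.46 (SE; in edgeR, adjusted p = 0.177). DESeq2 and limma voom called both, the fit with the crystallin covariate Me1, and that without control library 3 Abcc4 (2.11). Of 4 tested superoxide dismutase and catalase genes, 0 passed (0 at an unadjusted p under 0.05), with Sod2 at -0.24 ± 0.16 and Cat at 0.19 ± 0.18 on the log2 scale (SE). Of 9 tested genes for the making of selenoproteins, 0 passed (1 at an unadjusted p under 0.05), with Pstk at 0.43 ± 0.17 and Sephs2 at 0.24 ± 0.13 on the log2 scale (SE).

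**Figure D5:**
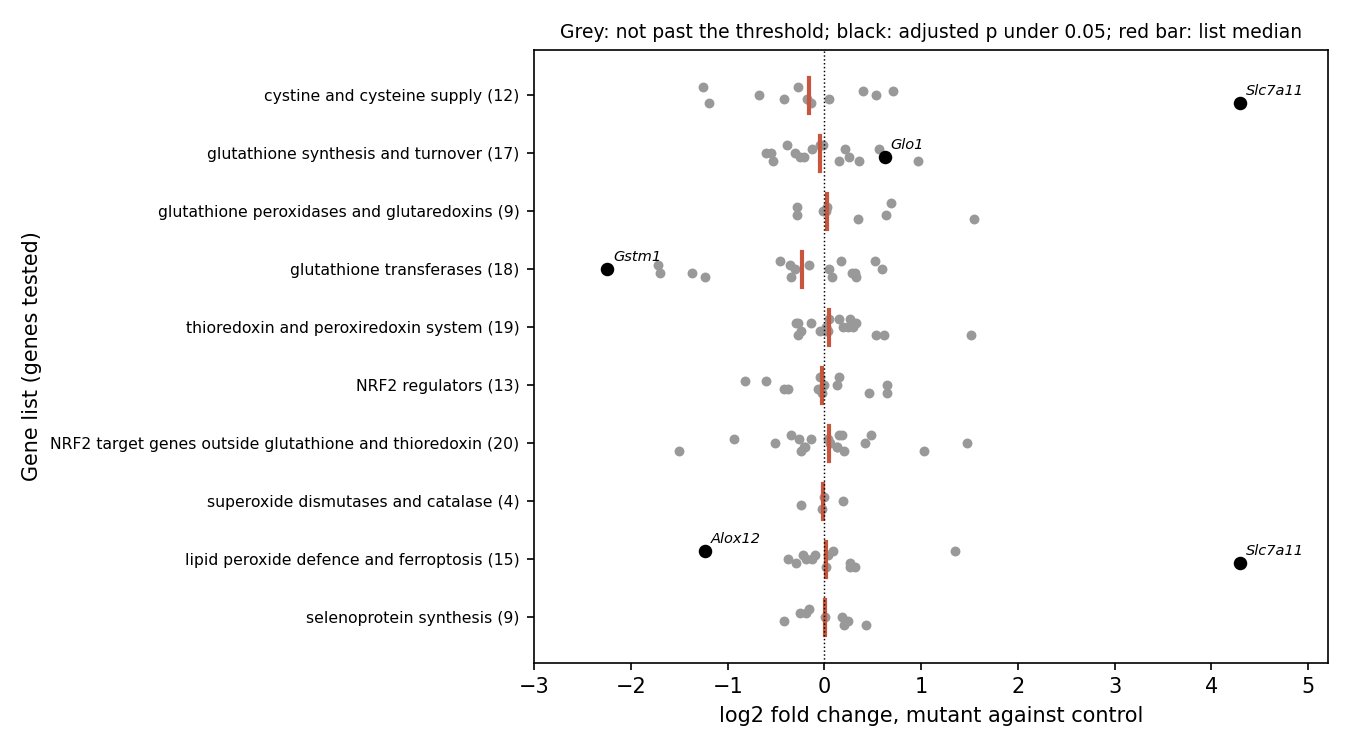
Log2 fold changes, mutant against control, of the tested genes in 10 lists around glutathione (number tested in brackets), grey for genes that did not pass, black for those past an adjusted p of 0.05, with a red bar at each list's median. The medians lie between -0.23 and 0.05, and Slc7a11, Gstm1, Glo1 and Alox12 are the black points, Slc7a11 being in 2 lists.

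The patterns nearest to those of Slc7a11 and Gstm1 over the 6 libraries were sought among 9278 other genes with a mean of at least 5 CPM, by the Euclidean distance between centred log2 CPM values. Nearest to Slc7a11 were Tifa (distance 1.39), the gene of a signalling adaptor, Fos (1.59) and Anxa2 (1.66), the gene of a calcium-dependent membrane binding protein. Tifa had only 0, 2 and 9 counts in the controls, near the floor, and 189, 234 and 198 in the mutants. Tifa and Fos reached the mean of 5 CPM only through the mutant libraries. Fos, an AP-1 subunit gene, stood at 1.12, 1.82 and 3.22 CPM in the controls and 21.2, 17.7 and 28.8 CPM in the mutants. Like Slc7a11, Fos was lowest in control library 1 and highest among controls in control library 3. It was picked for its likeness over these same libraries, so nothing is read from this order. Nearest to Gstm1 were Bcam (0.485), Fam110b (0.531) and Cyp26a1 (0.708). Their mutant means were 2.40, 4.48 and 2.45 CPM, so they reached the mean of 5 CPM only through the controls. Cyp26a1, whose enzyme breaks down retinoic acid, stood at 9.64, 10.02 and 18.0 CPM in the controls and 3.30, 1.65 and 2.40 CPM in the mutants. The distances of the genes near Slc7a11 were larger than those of the genes near Gstm1.

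Since the strain background was mixed, neighbours in gene order were listed. Among the 10 tested genes on either side, Slc7a11, Gclc, Gclm and Nqo1 had 0 called neighbours. Gstm1 had 1 of 20, Sort1, the 8th tested gene away, which encodes the sorting receptor sortilin and fell (log2 fold change -0.96 ± 0.14 (SE); in edgeR, adjusted p = 0.0108). Sort1 did not pass with the replicate block (-0.96) or without control library 2 (-0.95) or mutant library 3 (-0.92). Gsr and Txnrd1 had 2 each and Gpx1, Gpx4 and Hmox1 1 each, beside 2.22% of all tested genes. The part of inherited strain segments was not tested.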

How the data were processed

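Per the labels' protocols, RNA was extracted with a Qiagen kit, cDNA was made and amplified with the SMART-seq v4 ultra-low input kit and libraries were made by tagmentation (Nextera XT), a chemistry that does not mark strand. Per the submitters' processing notes, bcl2fastq 1.8.4, TopHat, Cufflinks, DESeq and the build mm9 were used, without roles. For the read counter, annotation and shared reads the entry is: not given in the sources used here. Raw counts by gene symbol were deposited for the 6 libraries singly and as 1 series table (0 values differed). A deposited table of the authors' own comparison holds a mean normalized signal, log2 fold changes and their errors, a score and p-values.

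The members, gene lists and tests were chosen with earlier results of these data known. Counts were tested in edgeR 4.0.16 (R 4.3.3) by the robust quasi-likelihood F test, after filterByExpr (minimum count 10, minimum total 15) and TMM scaling, without covariates, on all 12257 tested genes, with Benjamini-Hochberg adjustment over all of them and a threshold of 0.05. Standard errors come from the F statistic. In the 10 pathway lists, genes past the threshold were named, at most 4 per list, or otherwise the 2 of lowest p, together with all members, Etv1, Etv4, Etv5, Slc3a2, Nfe2l2, Keap1, Bach1, Atf4, the tested Gstm and Txnrd genes and the 3 nearest patterns to Slc7a11 and Gstm1. Gss, Slc1a4, Gsta4, Gstp1, Prdx1, Foxe3 and Bfsp2, and the neighbour Sort1, were chosen after their values were seen. Shared 50-base words were counted in GENCODE transcripts, and promoter windows and gene order came from RefSeq (GRCm38.p6); 7 of 10 members had a window. No library was a copy of another: the chi-square over its degrees of freedom was 28.1 to 137 for pairs within a group. A count of 0 allows up to 0.247 CPM in the shallowest library, mutant library 2 (3 counts), for counting error only.

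The procedure was tested on simulated data. Of 98 genes given a log2 fold change of 1 in size, 39.8% were recovered, and of 98 given 2, 79.6%. False calls numbered 11 there and 0 in simulated data without any change. Alternatives were DESeq2 1.42.0, limma 3.58.1 voom with quality weights, other normalizations and filters, the replicate number as a block, the crystallin share as a covariate, and leaving out each library.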

Additional observations from a re-analysis of the deposited data

How the results depend on the processing

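Slc7a11 kept its direction in all 14 alternatives and stayed past the threshold in 13; Gstm1 did so in 14 and 12. The exceptions were the fits without control library 2 (log2 fold change 4.17 for Slc7a11 and -2.21 for Gstm1) and, for Gstm1, without mutant library 1 (-2.30). Leaving out single libraries gave between 3.91 and 5.05 for Slc7a11 and between -2.48 and -2.0 for Gstm1. Over all genes, 272 were called (140 higher, 132 lower in mutant libraries). This became 821 (401 and 420) with DESeq2, 801 (389 and 412) with limma voom, 798 (367 and 431) given the crystallin share, and between 91 and 479 (54 to 213 higher, 36 to 266 lower) when single libraries were left out. With the replicate number as a block it was 122 (68 and 54). Among the named genes other than Bfsp2, which was not followed here, the block ended the calls of Etv1, Glo1, Cyp26a1 and Sort1. It kept those of Slc7a11 (4.54) and Gstm1 (-2.28). Between same-numbered libraries, deviations from the group means correlated at -0.284, -0.147 and 0.219. Between libraries of different number the correlations lay between -0.358 and 0.408. These values cannot show whether the numbers pair the libraries. The share of higher calls, 51.5%, was 44.5% to 60.4% when single libraries were left out. Signs turned for genes near 0. Gpx4 was at -0.0092 with the replicate block, -0.063 by limma voom, -0.073 given the crystallin share, and -0.21 to 0.14 over the fits that left out a library (-0.038 for control library 3, -0.21 for mutant library 3). Keap1 was at 0.0074 by limma voom and -0.055 to 0.062 over those fits (0.062 for control library 3, 0.0085 for mutant library 1, 0.030 for mutant library 2). The cause was not tested. Gclc, Gclm, Gsr, Gpx1, Txnrd1, Hmox1 and Nqo1 neither passed nor turned in any alternative that gave a value. With 3 libraries a group, small changes such as those of Gclc and Txnrd1 may not be detectable.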
